A study of Mus musculus with 4 samples.

Results

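Keratin genes were read on 4 expression arrays of palatal mesenchyme, the connective tissue inside the shelves of the embryonic mouse palate, grown in culture. The genes were chosen by name, as every probe set whose only symbol on the platform is Krt followed by a digit. This gave 61 probe sets of 48 genes, of 45101 probe sets in the deposited table and of 34945 with 1 gene symbol. The family was picked from these same values because several members read high on 1 array, the one with a Tak1 inhibitor, so differences that involve that array are given as descriptions. Keratin-associated proteins and Krtdap were not counted as members.

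The cultures were primary palatal mesenchymal cells of outbred wild-type embryos at E14.0, counted in days of embryonic development, with 1 array for each of 4 conditions. The first had 5Z-7-Oxozeaenol, an inhibitor of the kinase Tak1 (here oxozeaenol), for 60 minutes and TGF-beta2 for 120 minutes. The second had SB431542, an inhibitor of the TGF-beta type I receptor kinase, for 60 minutes and TGF-beta2 for 120 minutes. The third had TGF-beta2 alone for 120 minutes, and the last was untreated. The sources used here give neither inhibitor doses nor the number of embryos, and they do not say whether cells were pooled or whether the 4 cultures were prepared separately. With 1 array a condition there is no replicate check, no test and no p-value, and every difference below is between single arrays.

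Keratins are the intermediate filament proteins of epithelial cells. A filament is built from pairs of a type I and a type II keratin, and each kind of epithelium uses its own pairs. KRT5 and KRT14 fill the basal layer of stratified epithelium, KRT4 and KRT13 the upper layers of the mouth and oesophagus, KRT1 and KRT10 those of skin, and KRT8 and KRT18 simple epithelium. KRT6, KRT16 and KRT17 are found in hair follicles, nails and the mouth, and in skin after injury. In the developing palate, keratins belong to the epithelium that covers the shelves and to its outer layer, the periderm, whereas mesenchyme is built on vimentin.

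To set dim readings aside, the log2 values of each probe set were averaged over the 4 arrays. Probe sets whose average reached the median of all, a signal of about 66.1, passed, and the brightest passing one stood for its gene. Of the 48 keratin genes, 18 passed this filter, and Krt13, Krt16 and Krt19 passed it only through the oxozeaenol array. Log2 differences and folds are on the log2(signal + 21.7) scale, which understates differences of dim genes. Levels of different probe sets are not read as relative amounts of RNA. Sums over gene lists, given further below, add such levels, so bright probe sets weigh most in them. Over the TGF-beta2 array, the oxozeaenol array stood 2-fold or more higher for 10 of the 18 (55.6%) and for 1.82% of all 11744 kept genes. None of the 18 was at least 2-fold lower, where 2.17% of all genes were. These 10 were 4.67% of the 214 genes at least 2-fold higher, and keratins were 0.153% of the kept genes. Since the family was picked on this array, nothing is read from these shares. In RNA of a whole culture, more epithelial cells and more keratin RNA per cell cannot be told apart.

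Basal keratins were among the 10. Krt14, which encodes the type I basal keratin, had signals of 2218 with oxozeaenol, 275 with SB431542, 295 with TGF-beta2 and 141 untreated. Its type II partner gene Krt5 had 1383 with oxozeaenol, 258 with SB431542, 233 with TGF-beta2 and 195 untreated. For both, oxozeaenol gave the high value and the other 3 arrays lay within 2-fold of each other on the log2(signal + 21.7) scale. Oxozeaenol over TGF-beta2 came to 7.08-fold for Krt14 and 5.52-fold for Krt5. Krt15, a further type I keratin of basal cells, read 524 with oxozeaenol, 14.7 with SB431542, 2.5 with TGF-beta2 and 2.3 untreated. It did not pass the filter, since its other 3 signals were low, and only its oxozeaenol reading exceeded the filter level. When the filter was taken on the mean of the linear signals instead, Krt15 passed and counted as an 11th higher gene, of 19 kept, at 22.6-fold over TGF-beta2.

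Keratins of injured skin and of hair and nail held some of the largest differences. Krt6b, a type II keratin, had signals of 3060 with oxozeaenol, 88.9 with SB431542, 56.0 with TGF-beta2 and 59.7 untreated. Krt16, a type I partner of the KRT6 proteins, had 886 with oxozeaenol, 60.5 with SB431542, 39.5 with TGF-beta2 and 81.8 untreated. Both read near the filter level on the 3 arrays without oxozeaenol. Krt6a, which encodes the close relative of KRT6B, had 4877 with oxozeaenol, 1049 with SB431542, 953 with TGF-beta2 and 821 untreated. It thus gave a clear signal in all 4 cultures, the untreated one included. Krt17, a type I keratin of the same settings and of periderm, had 517 with oxozeaenol, 163 with SB431542, 207 with TGF-beta2 and 172 untreated. Over TGF-beta2, the oxozeaenol array stood 39.7-fold higher for Krt6b, 14.8-fold for Krt16, 5.02-fold for Krt6a and 2.36-fold for Krt17. Krt75, the companion layer keratin of the hair follicle, lay between 12.6 and 30.5 on all arrays.

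All 11744 genes were ordered by how far the oxozeaenol array stood above the TGF-beta2 array. Krt13, the type I keratin of the mucosal upper layers, came first, followed by Krt6b. Krt13 was kept only through the oxozeaenol array, on which the family was picked, so nothing is read from these ranks. The order of Krt13 and Krt6b holds for the pseudocount of 21.7. With the pseudocount at the median of all signals, Krt6b, at a log2 difference of 4.64, stood above Krt13, at 4.48. Krt13 had signals of 2023 with oxozeaenol, 55.8 with SB431542, 24.3 with TGF-beta2 and 28.0 untreated, and was 44.5-fold higher with oxozeaenol than with TGF-beta2. Its type II partner gene Krt4 had 637 with oxozeaenol, 101 with SB431542, 45.3 with TGF-beta2 and 72.1 untreated, or 9.83-fold higher. Krt13 was below the filter level on each of the other 3 arrays, and Krt4 lay on both sides of it. Krt78 read 82.4 with oxozeaenol, 13.0 with SB431542, 15.6 with TGF-beta2 and 39.8 untreated, and Krt76, a keratin of the hard palate and gum, stayed between 4.5 and 14.3. Neither passed the filter.

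Keratins of the upper layers of skin differed less or were dim. Krt10 had signals of 397 with oxozeaenol, 214 with SB431542, 212 with TGF-beta2 and 225 untreated, and lay just under the 2-fold mark at 1.80-fold over TGF-beta2. The nearest gene above that mark was Krt7 at 2.32-fold. Krt1, whose product pairs with KRT10, read 90.4 with oxozeaenol, 2.6 with SB431542, 9.9 with TGF-beta2 and 4.0 untreated. Krt77, a relative of Krt1, read 78.9 with oxozeaenol, 54.3 with SB431542, 11.2 with TGF-beta2 and 27.6 untreated. For Krt1 the oxozeaenol array was the only one above the filter level, whereas for Krt77 the SB431542 reading was closer to it. Krt2 stayed between 3.3 and 5.1, and Krt24 between 3.5 and 36.6.

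Simple epithelial keratins split. Krt19 had signals of 209 with oxozeaenol, 73.3 with SB431542, 34.7 with TGF-beta2 and 81.0 untreated, so its 4.09-fold difference over TGF-beta2 rested in part on a low TGF-beta2 reading, and over untreated it was 2.25-fold. Krt7 had 191 with oxozeaenol, 96.8 with SB431542, 69.9 with TGF-beta2 and 45.6 untreated. Krt8 had 684 with oxozeaenol, 465 with SB431542, 458 with TGF-beta2 and 563 untreated. Krt18, whose product pairs with KRT8, had 400 with oxozeaenol, 266 with SB431542, 311 with TGF-beta2 and 304 untreated. Krt8 and Krt18 were therefore measured in every culture and differed by 1.47-fold and 1.27-fold between oxozeaenol and TGF-beta2, within the 2-fold mark. Krt23 read 113 with oxozeaenol and 16.5, 8.0 and 5.9 with SB431542, with TGF-beta2 and untreated, below the filter on the mean. Krt20, a keratin of gut lining, had its highest reading, 62.5, with TGF-beta2 alone and 21.7 to 28.4 elsewhere.

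**Figure D1:**
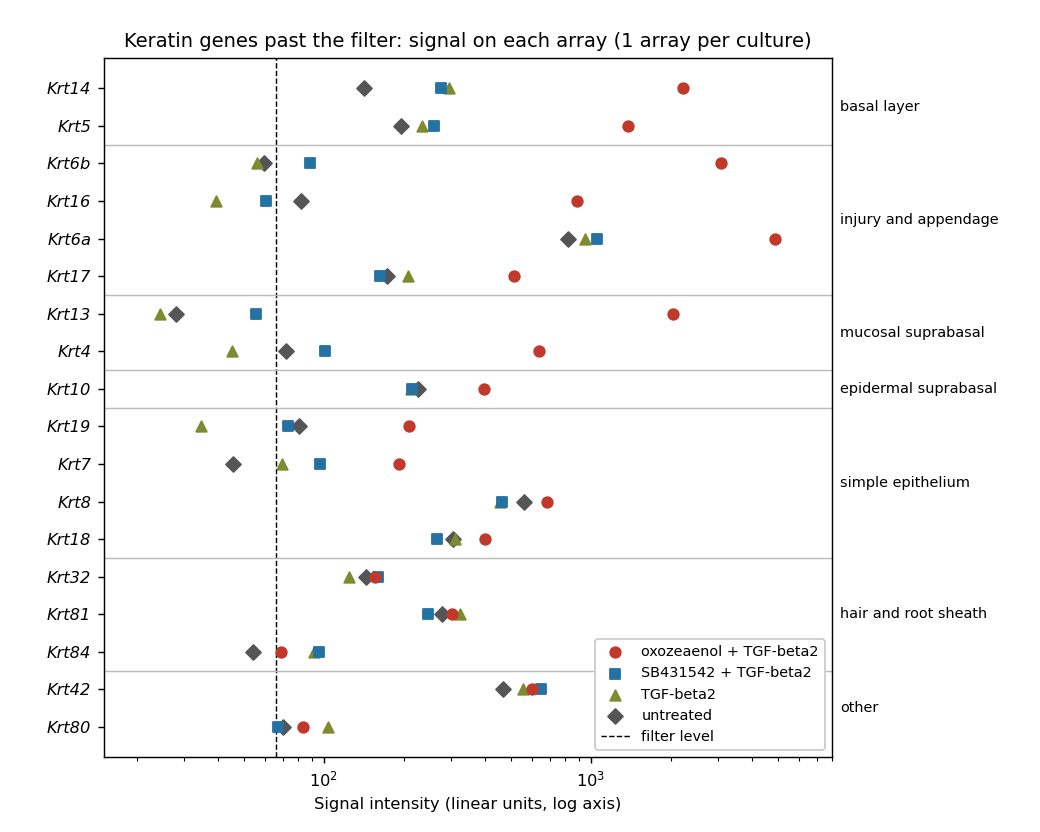
Signal of the 18 keratin genes that passed the filter, by class of epithelium (x axis, linear signal units on a log scale; 1 point per array; the dashed line is the filter level of 66.1). Red circles (oxozeaenol) lie far to the right of the other 3 arrays for Krt14, Krt5, Krt6b, Krt16, Krt6a, Krt13 and Krt4, and among the other points for Krt32, Krt81, Krt84, Krt42 and Krt80.

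Hair and root sheath keratins formed the largest class, with 19 genes, of which 3 passed the filter, and none of these 3 differed by 2-fold in any of the 6 comparisons. Krt81, a hair cortex keratin, had signals of 303 with oxozeaenol, 245 with SB431542, 324 with TGF-beta2 and 276 untreated. Krt32, a hair cuticle keratin, had 155 with oxozeaenol, 160 with SB431542, 124 with TGF-beta2 and 144 untreated. Krt84 had 68.9 with oxozeaenol, 95.9 with SB431542, 92.1 with TGF-beta2 and 54.0 untreated. In these 3 genes the oxozeaenol array lay within the range of the other arrays. The 16 hair and root sheath genes that did not pass had signals between 0.9 and 76.0. Among them Krt71, an inner root sheath keratin, was at 66.3 with oxozeaenol, 13.7 with SB431542, 63.8 with TGF-beta2 and 54.3 untreated, so that the SB431542 array was the low one.

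Of the keratins in no class, Krt42 had signals of 601 with oxozeaenol, 652 with SB431542, 559 with TGF-beta2 and 470 untreated. Krt80 had 83.4 with oxozeaenol, 67.4 with SB431542, 104 with TGF-beta2 and 70.3 untreated. Neither differed by 2-fold in any comparison. Krt88 read 23.2 with oxozeaenol, 71.6 with SB431542, 123 with TGF-beta2 and 46.7 untreated, and did not pass the filter.

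The 5 textbook pairs differed in step only in part. Oxozeaenol over TGF-beta2, both genes of the KRT5 and KRT14 pair were at least 2-fold higher, as were both of the KRT4 and KRT13 pair and both of the KRT6B and KRT16 pair. For KRT8 and KRT18 neither gene was, and for KRT1 and KRT10 the dim Krt1 was 3.55-fold higher and Krt10 stayed under 2-fold. Within the mucosal pair the log2 differences were 5.47 for Krt13 and 3.30 for Krt4, and within the basal pair 2.82 for Krt14 and 2.46 for Krt5.

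The remaining comparisons show how far these differences belong to the oxozeaenol array, and they share arrays with each other. Oxozeaenol over SB431542, 9 of 18 keratin genes were at least 2-fold higher (1.51% of all genes) and none was lower (1.30%). The 9 were the 10 above without Krt7, which was 1.79-fold higher. Oxozeaenol over untreated, the same 10 genes were at least 2-fold higher (1.49% of all genes) and none was lower (1.51%). The median log2 difference of the 18 genes was 1.23 over TGF-beta2, 1.06 over SB431542 and 1.32 over untreated, beside 0.05, 0.02 and 0.03 for all kept genes. The oxozeaenol array was the highest of the 4 for 13 of 18 keratin genes, as it was for 34.8% of all kept genes. For 9 of the 18 it stood at least 2-fold above the highest of the other 3, as it did for 0.630% of all kept genes, and nothing is read from this count either. When the filter used the 3 other arrays alone, 17 keratin genes were kept, and 7 stood 2-fold or more higher over TGF-beta2, 6 over SB431542 and 7 over untreated. Of all 11692 genes kept by that filter, 1.51%, 1.13% and 1.13% were higher. The family was still picked on the oxozeaenol array, so these counts too are descriptions.

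In the comparisons without oxozeaenol no kept keratin gene differed by 2-fold at the pseudocount of 21.7. With the pseudocount at the 10th percentile of all signals, Krt13 (1.03) and Krt4 (1.06) passed 2-fold for SB431542 over TGF-beta2, and Krt14 (1.03) and Krt19 (−1.10) for TGF-beta2 over untreated. The values that follow are at 21.7. SB431542 over TGF-beta2, 0 of 18 were higher (0.613% of all genes) and 0 lower (1.18%), with log2 differences from −0.50 for Krt80 to 0.87 for Krt4. SB431542 over untreated, 0 were higher (0.468%) and 0 lower (0.383%), from −0.33 for Krt16 to 0.87 for Krt14. TGF-beta2 over untreated, 0 were higher (0.673%) and 0 lower (0.366%), from −0.86 for Krt19 to 0.96 for Krt14. With background shares this low, 0 of 18 genes is near what the shares of all genes would give. The medians of the 18 were 0.14, 0.24 and 0.12 in these comparisons, beside 0.03, −0.01 and −0.03 for all kept genes. Each value rests on 1 probe set, and others of the same gene differed. Krt14's other kept probe set stood at 0.02 for TGF-beta2 over untreated and −0.11 for SB431542 over untreated, and its dim one at 0.19 and 0.67. For SB431542 over TGF-beta2, probe sets below the filter stood at −0.10 for Krt4 and at −0.05 and 0.00 for Krt13.

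**Figure D2:**
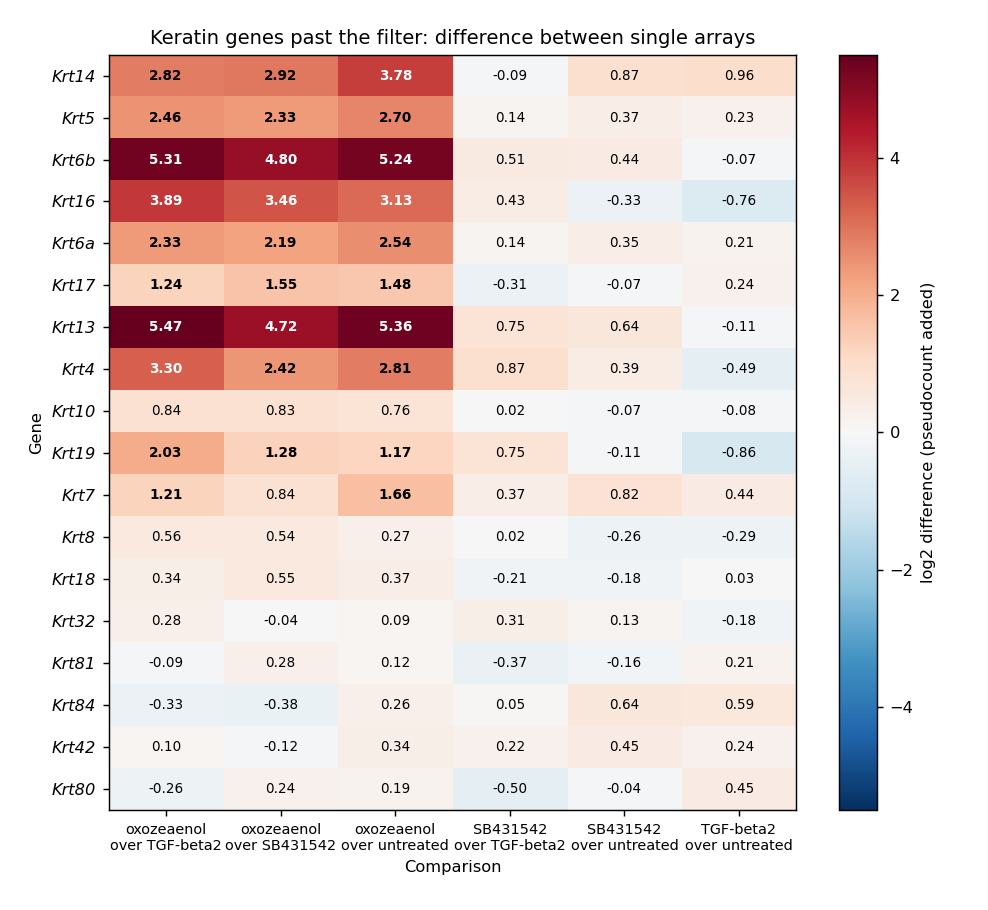
Log2 difference of each kept keratin gene (rows, in the order of the signal plot) in each of the 6 comparisons between single arrays (columns), with bold values at 2-fold or more. The 3 columns with oxozeaenol on top hold all the bold values, up to 5.47 for Krt13, and the other 3 columns hold none.

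Counted by probe set with no filter on the mean, but with the brighter array at or above 66.1, 21 of 61 keratin probe sets were at least 2-fold higher with oxozeaenol than with TGF-beta2 (1.83% of the 34945 probe sets). The 1 lower probe set, where 1.45% of all were lower, was that of Krt88. The 21 belonged to 15 genes, the 10 kept ones and Krt1, Krt15, Krt23, Krt77 and Krt78. The 30 genes that did not pass the filter had 32 probe sets, with signals between 0.9 and 524.

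For 9 keratin genes the array held several probe sets, 22 in all, which sample different stretches of the transcripts. The 3 of Krt6a stood at 2.33, 2.31 and 3.35 on the log2 scale for oxozeaenol over TGF-beta2. The last has the suffix _x_at, which marks probes that can also bind other transcripts, and reads of Krt6a and its relative Krt6b cannot be told apart for certain on this platform. The probe sets that stand for Krt14, Krt4 and Krt42 have this suffix too, so their signals may include other transcripts. Of the 3 probe sets of Krt14, those at 2.82 and 2.42 passed the filter. The one that did not, at −0.05, read 21.3 to 46.6 on the 4 arrays and so gave little signal.

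The 3 probe sets of Krt13 were 44.5-fold, 9.21-fold and 2.40-fold higher, and the dimmer 2, both with the suffix _x_at, read 196 and 169 with oxozeaenol. The 2 of Krt4 stood at 3.30 and 3.05. Krt13 and Krt4 thus had every probe set on the same side of 2-fold. The 3 of Krt8 lay together at 0.56, 0.57 and 0.45, all below 2-fold. Krt17 had 1 kept probe set at 1.24 and 1 dim one at −0.88, whose highest reading was 24.9. The 2 probe sets of Krt42 pointed apart, at 0.10 and −0.49. The first is the one with the suffix _x_at that gave the Krt42 signals above, and the second read 56.1 to 87.2. The probe sets of Krt12, a cornea keratin, and Krt222 were all dim, with no reading above 46.4. One further probe set is listed for both Krt17 and Krt14 and is no member. It read 43.6 with oxozeaenol, 58.9 with SB431542, 21.0 with TGF-beta2 and 50.9 untreated.

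**Figure D3:**
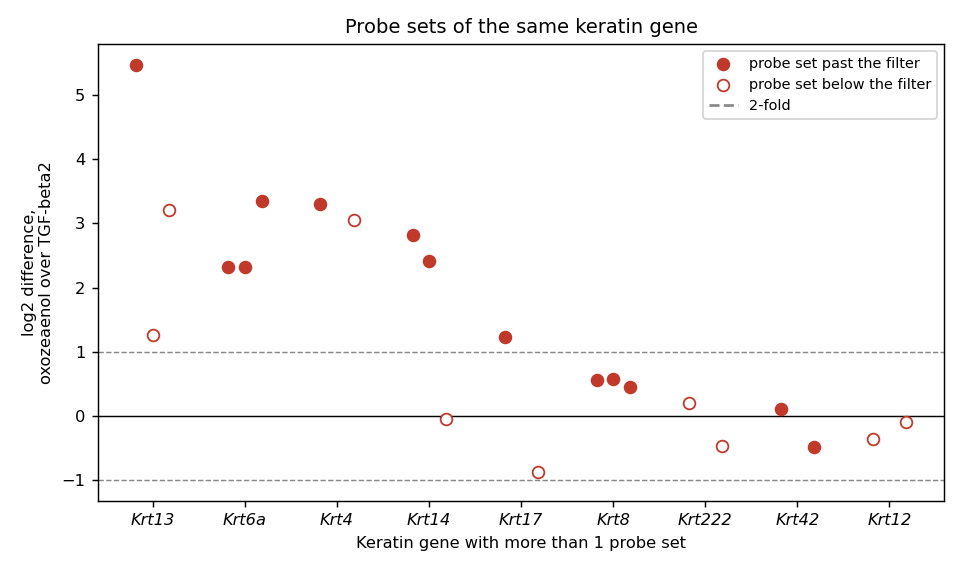
Log2 difference of oxozeaenol over TGF-beta2 for each probe set of the 9 keratin genes with several (filled, past the filter; open, below it; dashed lines, 2-fold). Every probe set of Krt13, Krt6a and Krt4 lies above the upper line, while the open points of Krt14 and Krt17 lie at −0.05 and −0.88.

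Mouse keratin genes lie in clusters, and the order of all 48 was taken from RefSeq's annotation of GRCm38.p6, with 24 genes on chromosome 11 and 24 on chromosome 15. In that order, the kept genes at least 2-fold higher with oxozeaenol than with TGF-beta2 lay mostly side by side. Genes below the filter that were past 2-fold also lay elsewhere. These were Krt23 (2.18) and Krt31 (1.16) on chromosome 11, and Krt1 (1.83), Krt77 (1.61) and Krt78 (1.48) on chromosome 15. On chromosome 11, the 5 kept ones ran from Krt13 through Krt19, Krt14 and Krt16 to Krt17, with the dim Krt15 (4.50) between Krt13 and Krt19. Next to this stretch stood Krt36 (0.16, dim) on one side and Krt42 (0.10) on the other. On chromosome 15, Krt6b, Krt6a and Krt5 were neighbours, between the dim Krt75 (0.18) and Krt71 (0.04), and Krt4 and Krt7 stood apart from them. Genes of like tissue use also neighbour each other in these clusters, so place and class cannot be told apart here.

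**Figure D4:**
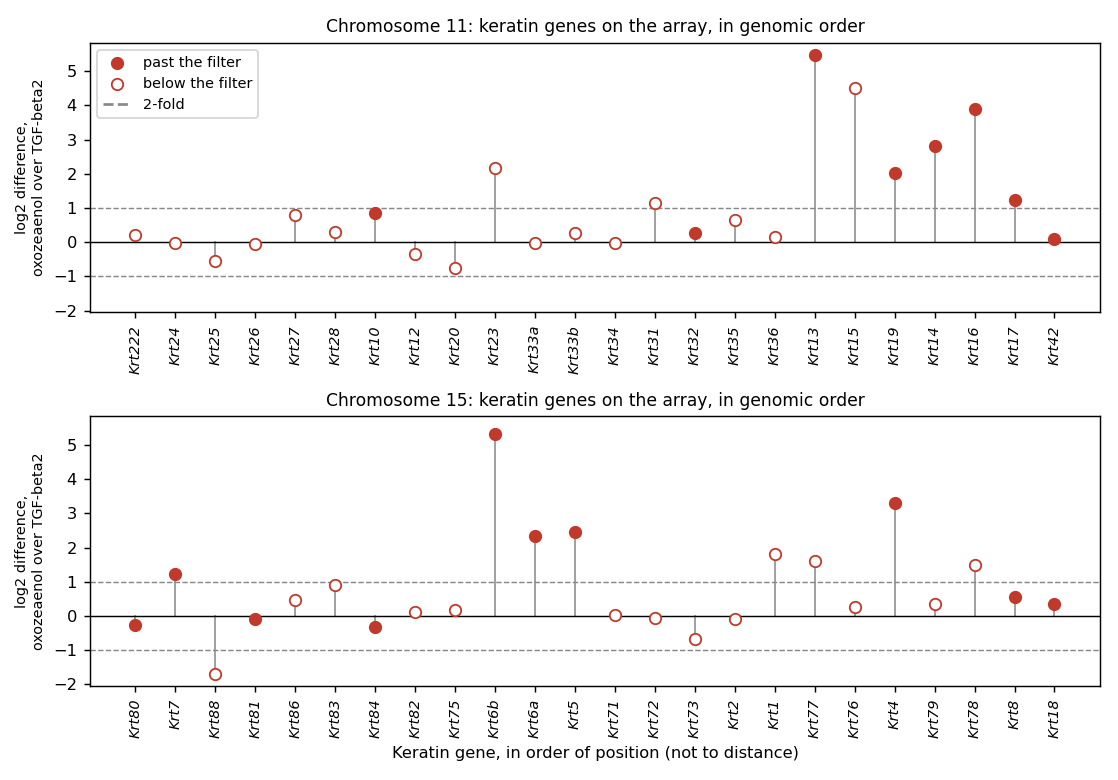
Log2 difference of oxozeaenol over TGF-beta2 for the keratin genes of chromosome 11 (upper panel) and chromosome 15 (lower panel), in genomic order and not to distance (filled, past the filter; open, below it; dashed lines, 2-fold). The filled points above 2-fold run from Krt13 to Krt17 on chromosome 11. On chromosome 15 they gather at Krt6b, Krt6a and Krt5, with Krt7 and Krt4 elsewhere. Open points above 2-fold lie at Krt15 within the first run, and outside these stretches at Krt23, Krt31, Krt1, Krt77 and Krt78.

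Because several members were high together, the stretch at the gene start was examined where RefSeq's promoter table (GRCm38.p6) placed it at the 5′ end of the gene. Each window holds 250 bases before the start and 50 after it. The windows of 3 higher genes, Krt13, Krt5 and Krt7, are shown with that of Krt8, which stayed within 2-fold, so that they can be compared. They are written 5′ to 3′ on the strand of the gene, with matches to the searched motifs in capitals.
Krt13 (chr11:100121517-100121816, minus strand): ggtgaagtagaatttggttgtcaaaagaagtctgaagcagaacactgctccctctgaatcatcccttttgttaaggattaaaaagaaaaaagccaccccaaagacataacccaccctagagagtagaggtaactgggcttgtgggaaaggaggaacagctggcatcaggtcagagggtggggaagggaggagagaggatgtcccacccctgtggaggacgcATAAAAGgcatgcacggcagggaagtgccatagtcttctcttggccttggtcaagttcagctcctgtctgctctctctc
Krt5 (chr15:101712856-101713155, minus strand): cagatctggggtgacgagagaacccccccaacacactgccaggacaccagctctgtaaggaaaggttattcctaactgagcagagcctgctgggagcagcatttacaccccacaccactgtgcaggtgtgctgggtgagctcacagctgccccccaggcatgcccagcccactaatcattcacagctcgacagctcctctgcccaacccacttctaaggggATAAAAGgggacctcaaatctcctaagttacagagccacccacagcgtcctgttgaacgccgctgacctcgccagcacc
Krt7 (chr15:101412153-101412452, plus strand): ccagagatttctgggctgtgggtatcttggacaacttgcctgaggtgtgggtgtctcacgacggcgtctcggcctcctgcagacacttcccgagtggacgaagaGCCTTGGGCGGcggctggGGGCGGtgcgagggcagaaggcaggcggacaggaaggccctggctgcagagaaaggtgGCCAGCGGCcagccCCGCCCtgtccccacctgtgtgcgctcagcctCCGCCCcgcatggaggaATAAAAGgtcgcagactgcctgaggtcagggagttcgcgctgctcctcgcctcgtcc
Krt8 (chr15:102004293-102004592, minus strand): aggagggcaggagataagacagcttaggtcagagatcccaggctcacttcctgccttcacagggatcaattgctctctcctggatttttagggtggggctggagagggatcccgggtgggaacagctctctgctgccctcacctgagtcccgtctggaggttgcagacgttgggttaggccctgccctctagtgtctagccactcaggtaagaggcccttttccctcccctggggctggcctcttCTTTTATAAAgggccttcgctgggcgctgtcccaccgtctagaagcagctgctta

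Both strands were searched for TGAGTCA, the AP-1 motif, GCCNNNGGC, bound by AP-2 factors, TTGCNNCAA, a C/EBP motif, TATAAA, the TATA box, and GGGCGG, bound by Sp1. After the sequences had been seen, ATAAAAG was added, which can overlap TATAAA by all but its first letter. Of 26 keratin windows, 16 (61.5%) held TATAAA, beside 13.6% of all 32851 windows in the table. The 26 were limited to windows at the 5′ end of the gene and the 32851 were not, so here and below the shares are of unlike sets. None of the 3 higher genes' windows held these exact letters, whereas 4 of 5 windows of kept genes within 2-fold did. That does not show that the 3 lack a TATA box, since only exact matches were searched. ATAAAAG was in all 3 of the higher genes' windows, in 2 of the 5, in 42.3% of keratin windows and in 5.42% of all windows. Because it was added after these windows had been seen, nothing is read from its shares. TGAGTCA was in none of the 26 (5.20% of all windows), although a second window listed for Krt13, not at the gene's 5′ end and so left out, held it at 2 places. TTGCNNCAA was in none of the 26 either (2.08% of all windows). GCCNNNGGC was in 4 of 26 (16.6% of all) and GGGCGG in 2 of 26 (35.7%), with Krt7 holding both. These are matches of letters in short windows and show no binding.

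Other epithelial genes were read on the same arrays from lists written for this comparison. Summed over the 18 kept keratin genes, the signal was 18693 with oxozeaenol, 4388 with SB431542, 4140 with TGF-beta2 and 3804 untreated. The family was picked on the oxozeaenol array, and Krt13, Krt16 and Krt19 were kept only through it. Nothing is therefore read from the keratin sum. Of 28 cornified envelope and suprabasal genes, 17 were kept. With oxozeaenol, 11 of them stood 2-fold or more above TGF-beta2 (1.82% of all kept genes) and 0 stood below it by as much (2.17%). The median log2 difference was 2.46. Their summed signal was 9266 with oxozeaenol, 2153 with SB431542, 1766 with TGF-beta2 and 1785 untreated. Krtdap, which encodes a secreted protein of differentiating keratinocytes, had 951 with oxozeaenol, 50.4 with SB431542, 5.6 with TGF-beta2 and 12.1 untreated. Sprr3, a small proline-rich protein of mucosal epithelium, had 959 with oxozeaenol, 67.3 with SB431542, 30.5 with TGF-beta2 and 39.1 untreated. These genes resembled Krt13 in reading low on all 3 arrays without oxozeaenol. Dmkn had 1019 with oxozeaenol, 41.1 with SB431542, 44.5 with TGF-beta2 and 31.3 untreated. The probe sets of Krtdap, Sprr3 and Dmkn passed the filter only through the oxozeaenol array. How many of the 17 genes did so was not counted, so nothing is read from the count, median or sum of this list.

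Desmosomes are the junctions to which keratin filaments attach, and 8 of 14 listed genes were kept. Of these, 3 stood 2-fold or more above TGF-beta2 (1.82% of all kept genes), namely Dsp, Dsc2 and Perp. By as much, 0 stood below it (2.17%), and the median was 0.66. The probe set of Dsc2 passed the filter only through the oxozeaenol array. Dsp, the desmoplakin gene, which links keratins to the junction, had 1012 with oxozeaenol, 139 with SB431542, 148 with TGF-beta2 and 147 untreated, and Dsc2, a desmosomal cadherin, had 458 with oxozeaenol, 44.3 with SB431542, 66.2 with TGF-beta2 and 70.6 untreated. The desmosome list summed to 6654 with oxozeaenol, 2743 with SB431542, 3638 with TGF-beta2 and 3004 untreated. Hemidesmosomes join keratins to the basement membrane. All 6 kept genes of 9 were within 2-fold (median −0.08), where 1.82% of all kept genes were higher and 2.17% lower. Their sum was 11354 with oxozeaenol, 12401 with SB431542, 14234 with TGF-beta2 and 13182 untreated.

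Of 19 genes for epithelial adhesion and surface proteins, 9 were kept. Cdh3 and Spint2 were the 2 higher by 2-fold or more (1.82% of all kept genes) and 0 were lower (2.17%), with a median of 0.61. Cdh3, a cadherin of basal epithelium, had 152 with oxozeaenol, 121 with SB431542, 34.4 with TGF-beta2 and 174 untreated, so that the TGF-beta2 array was the low one. Over untreated, Spint2 was the 1 gene of the list higher by 2-fold (1.49% of all kept genes), and the median was −0.01. Cdh1, the epithelial cadherin, had 463 with oxozeaenol, 191 with SB431542, 230 with TGF-beta2 and 257 untreated. Epcam, a surface marker of many epithelia, had 366 with oxozeaenol, 331 with SB431542, 232 with TGF-beta2 and 369 untreated. The summed signal was 2527 with oxozeaenol, 1699 with SB431542, 1884 with TGF-beta2 and 2080 untreated. Of 20 epithelial regulators, 6 were kept and 1, Klf4, was at least 2-fold lower than with TGF-beta2, where 2.17% of all kept genes were (median 0.14). Klf4, a transcription factor of epithelial differentiation that mesenchymal cells and macrophages also express, had 2317 with oxozeaenol, 4832 with SB431542, 4771 with TGF-beta2 and 5404 untreated, and made up most of the list's sum of 3191 with oxozeaenol, 5610 with SB431542, 5492 with TGF-beta2 and 6113 untreated. Trp63, the basal epithelial transcription factor, was below the filter, with 128 with oxozeaenol, 52.0 with SB431542, 37.2 with TGF-beta2 and 26.1 untreated. Cdh1 and Epcam thus read above the filter level in the untreated culture too. On the oxozeaenol array 11 of 17 cornified genes, 3 of 8 desmosome genes and Spint2 stood 2-fold or more above TGF-beta2, as did 1.82% of all kept genes. Some of the cornified and desmosome genes passed the filter only through that array. Jup (−0.17), Pkp1 (−0.16) and Ppl (0.26) of the desmosome stayed within 2-fold of TGF-beta2. Pkp1 was itself higher with TGF-beta2 than untreated (1.19). Oxozeaenol over untreated, 4 of 8 desmosome genes, Dsp, Pkp1, Dsc2 and Perp, were at least 2-fold higher (1.49% of all kept genes). The part of these epithelial genes in the keratin differences was not tested.

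**Figure D5:**
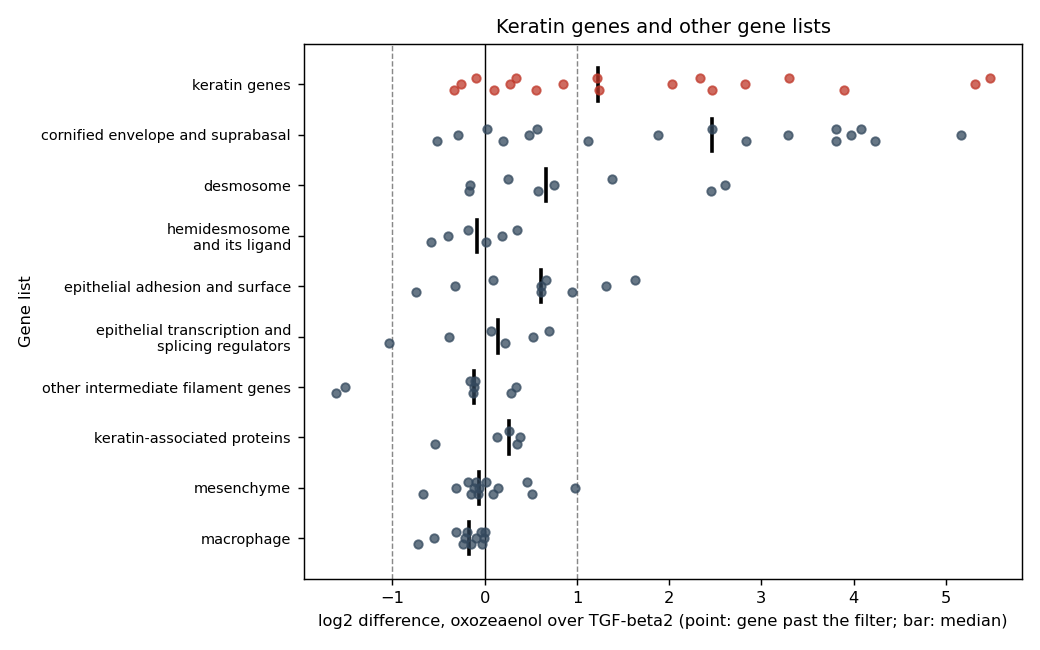
Log2 difference of oxozeaenol over TGF-beta2 for the kept genes of the keratin family and of 9 other lists (1 point per gene; bars, medians; dashed lines, 2-fold). Keratin genes (red, median 1.23) and cornified envelope genes (median 2.46) spread far to the right, whereas mesenchyme genes (median −0.07) and macrophage genes (median −0.17) lie within 2-fold. Some keratin and cornified envelope genes were kept only through the oxozeaenol array.

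Intermediate filament genes outside the keratins were counted in the same way. Of 16 listed, 8 were kept. With oxozeaenol over TGF-beta2, none was at least 2-fold higher (1.82% of all kept genes) and 2 were lower (2.17%), with a median of −0.12. For 8 genes, none higher is near the share of all genes, so nothing is read from it. Vim, the vimentin gene of mesenchyme, had 19112 with oxozeaenol, 22267 with SB431542, 20661 with TGF-beta2 and 19144 untreated. Nes, the nestin gene of progenitor cells, had 754 with oxozeaenol, 1290 with SB431542, 2343 with TGF-beta2 and 1663 untreated, and Des, the desmin gene of muscle, had 80.2 with oxozeaenol, 289 with SB431542, 269 with TGF-beta2 and 273 untreated. The oxozeaenol array was thus the lowest for Nes and Des. Of 38 keratin-associated protein genes, which encode the matrix around hair keratins, 5 were kept. All 5 were within 2-fold (median 0.26), which is near the background shares.

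Markers of other cell types the cultures could hold were checked in the same comparison. All 14 kept genes of 15 mesenchyme markers were within 2-fold (median −0.07), and they summed to 151826 with oxozeaenol, 164242 with SB431542, 156773 with TGF-beta2 and 148711 untreated. All 12 macrophage markers were kept and within 2-fold (median −0.17), and they summed to 56836 with oxozeaenol, 66472 with SB431542, 63380 with TGF-beta2 and 68064 untreated. Oxozeaenol over untreated, 1 of them, Cd14, was at least 2-fold lower (log2 difference −1.02), where 1.51% of all kept genes were. Only 2 of 10 endothelial, 3 of 10 skeletal muscle, 5 of 10 neuron and glia and 2 of 6 melanocyte markers were kept. Oxozeaenol over TGF-beta2, all of these were within 2-fold, with medians of −0.01, 0.00, 0.06 and −0.43. The 4 arrays were close in overall signal, with medians of 71.6 with oxozeaenol, 72.7 with SB431542, 68.2 with TGF-beta2 and 66.3 untreated, and Pearson's r of log2 signals between pairs of arrays was 0.975 to 0.982 over probe sets, which is a description and no test.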

How the data were processed

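The deposited table holds intensities on a linear scale, 1 value per array for each probe set. The submitters' processing notes name GCOS, Affymetrix's software, and the sources used here state no version or settings for it. The deposited values average about 499.8 on each array when the lowest and highest 2% are set aside, so arrays had been scaled to a common level, which assumes equal average transcript levels.

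From these, 64 control probe sets were left out, leaving 45037. The platform annotation gave 34945 of them 1 symbol, 932 several and 9160 none. All 48 keratin symbols matched RefSeq by gene ID. The pseudocount of 21.7 is the 25th percentile of all signals. Differences between 2 arrays were counted at 2-fold, with Python 3.11.15, pandas 2.3.3 and numpy 2.4.6, and the counting was tested on simulated arrays. Each group held 1 array, so no test was run. Named were all keratin genes that were kept, had several probe sets, or had a 2-fold difference above the filter level, and up to 4 genes of the other lists. The members, classes and lists were chosen with earlier results of these data known. The filter rule as written, a mean over the 4 arrays, can be read on the linear or the log2 scale. Both readings were computed, and the log2 one was kept after both outputs had been seen, because it matches earlier processing of these data. The keratin classes were likewise written, and the ATAAAAG motif added, after values or sequences had been seen. Alternatives were 2 other pseudocounts, 3 other filters, the filter on linear means, median centring, quantile normalization and the mean of a gene's probe sets.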

Additional observations from a re-analysis of the deposited data

Results flagged for a closer look

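Among keratin genes outside the count by gene, 5 gave a signal above the filter level on a stimulated array while the untreated array was below it and at least 2-fold lower. On the oxozeaenol array these were Krt15, at 523.6 against 2.268 untreated, Krt23, at 113 against 5.87, Krt1, at 90.43 against 3.975, and Krt77, at 78.9 against 27.64. Krt88 was at 123.2 on the TGF-beta2 array against 46.74 untreated. The family was picked on the oxozeaenol array, so nothing is read from Krt15, Krt23, Krt1 and Krt77 being high on it. Krt88 was highest on the TGF-beta2 array. The share of all genes that meet the same rule was not counted. Each of these 5 genes has 1 probe set and 1 array per condition, so no second reading was at hand.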

How the results depend on the processing

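Of 108 recomputed counts of keratin genes, 87 stayed within 1.5 times the reported count. Most reported counts were 0, so many of the 87 were a 0 that stayed 0. Of 864 recomputed differences of single genes, 857 stayed on the same side of 2-fold, with none reversed. A change of filter leaves the log2 values of these genes as they were, so the differences recomputed under other filters could not move. The 7 that moved came from the other pseudocounts, 4 at the 10th percentile and 3 at the median. The filter on linear means, the other reading of the filter rule and an alternative set out after both had been seen, had a level of 67.9 and kept 11756 genes, 19 of them keratins, with Krt15 the one added. It gave 11 keratin genes higher for oxozeaenol over TGF-beta2, 10 over SB431542 and 11 over untreated, with 0 lower in each, beside 238, 196 and 196 of all genes higher. No filter on low values gave, higher and lower of 48 keratin genes, 16 and 1 for oxozeaenol over TGF-beta2, 15 and 2 over SB431542, 16 and 1 over untreated, 3 and 1 for SB431542 over TGF-beta2, 2 and 1 for SB431542 over untreated, and 1 and 1 for TGF-beta2 over untreated. Without the filter, of all 18193 genes 3.23% were higher and 2.81% lower for oxozeaenol over TGF-beta2, and 2.54% and 2.23% for SB431542 over TGF-beta2, so counts of 1 to 3 are near the background. The stricter filter kept 3 keratin genes, Krt6a, Krt8 and Krt42, and left 1 higher in each of the 3 oxozeaenol comparisons. Of all 7097 genes it kept, 0.902% were higher over TGF-beta2, 0.648% over SB431542 and 0.662% over untreated. The filter on the 3 other arrays kept 17 and lowered the counts higher with oxozeaenol to 7 over TGF-beta2, 6 over SB431542 and 7 over untreated. Of all 11692 genes that filter kept, 1.51%, 1.13% and 1.13% were higher. It gave 1 lower over TGF-beta2 (2.33% of all genes), 1 lower over SB431542 (1.51%) and 1 higher for TGF-beta2 over untreated (0.624%), all Krt88. With the pseudocount at the 10th percentile, 2 were higher for SB431542 over TGF-beta2 (0.912% of all genes). For TGF-beta2 over untreated, 1 was higher (0.912%) and 1 lower (0.528%). Over the settings that kept each gene, the log2 difference of oxozeaenol over TGF-beta2 ran from 4.48 to 6.07 for Krt13, 4.64 to 5.63 for Krt6b and 0.90 to 1.38 for Krt7. No paired analysis was possible because each group held 1 array. Single arrays and dim signals limit every value.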
